A study of Mus musculus with 15 samples.

Results

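H3K27Ac, the acetylated form of lysine 27 of histone H3, was compared at the starts of all protein-coding genes between C10 cells at 0 and 48 hr post-induction (hpi). C10 cells were made from HAFTL, a mouse line of pre-B type, and carry C/EBPα fused to an estrogen receptor domain (C/EBPαER) and GFP, and by the labels both groups are of this single line. The 48 hpi cells had received 100 nM β-estradiol, which brings the fusion protein into the nucleus, with IL-3 and CSF-1 at 10 nM each, and the effects of hormone and cytokines cannot be told apart. Untreated cells had received the solvent, 0.1% ethanol. The comparison used 2 of 15 chromatin immunoprecipitation sequencing (ChIP-seq) libraries, and the others, H3K27Ac at 3, 12 and 24 hpi and H3K4Me1 and H3K27Me3 at the same 5 times, served for description.

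The members were the annotated 5′ starts of 22350 genes, all the protein-coding genes on chromosomes 1 to 19 and X in the mm9 annotation, and none was filtered out. For each start the tags were counted in the 3 kb centred on it, at an equal depth of 15.22 M tags per library, with 1 tag kept per position. The starts were then ranked by the log2 of the 48 hpi tags over the 0 hpi tags, with 5 tags added to each. This log2 change is the quantity meant below wherever a change is given, and a level is a number of tags in the 3 kb. Every window has the same length, but levels of different genes also depend on how uniquely tags map and on overlap of windows. Each mark and time had a single library, so that no replicate error was known and no test was run. The exact intervals given cover counting error only. The lists of genes below were drawn up with earlier results of these data known, so each is described by its counts and median beside those of all starts.

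H3K27Ac is placed on nucleosomes by coactivators such as p300 and CBP and is found around the starts of active genes and at active enhancers. At a typical active promoter it flanks the start, where the nucleosome is displaced. H3K4Me1 marks poised and active enhancers and the shoulders of active promoters, and H3K27Me3 is the mark of Polycomb repression on the same lysine that H3K27Ac occupies. C/EBPα is a basic leucine zipper factor of granulocyte and macrophage progenitors. When forced into B cell precursors it turns them into macrophage-like cells, which lose the surrogate light chain and other pre-B receptor genes and gain receptors for microbes, opsonins and lipoproteins.

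The promoters of the 3 starts at each end of the ranking are given as examples and do not stand for the ends. Each is printed 5′ to 3′ on the strand of its gene, from 250 bases before the annotated start to 50 from it on, as read from the NCBIM37 assembly (mm9). Capitals mark letters that match a C/EBP-like motif, TTNNGNAA or TTNCNNAA on the other strand. At the high end stand Clec4d (chr6:123211875-123212174, plus strand), a macrophage lectin, Lilrb4 (chr10:51200196-51200495, plus strand), an inhibitory receptor of myeloid cells, and Clec4e (chr6:123239840-123240139, minus strand), the Mincle receptor for mycobacterial glycolipid. At the low end stand Cplx2 (chr13:54472463-54472762, plus strand), which encodes the SNARE regulator complexin 2, Hes5 (chr4:154334782-154335081, plus strand), a repressor induced by Notch, and Svopl (chr6:37996947-37997246, minus strand), which encodes a transporter-like protein.
Clec4d: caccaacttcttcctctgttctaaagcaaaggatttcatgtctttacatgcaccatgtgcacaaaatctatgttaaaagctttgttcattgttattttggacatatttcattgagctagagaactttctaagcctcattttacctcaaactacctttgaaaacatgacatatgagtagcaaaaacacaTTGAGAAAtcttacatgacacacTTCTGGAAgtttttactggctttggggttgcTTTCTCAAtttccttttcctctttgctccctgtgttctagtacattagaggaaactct
Lilrb4: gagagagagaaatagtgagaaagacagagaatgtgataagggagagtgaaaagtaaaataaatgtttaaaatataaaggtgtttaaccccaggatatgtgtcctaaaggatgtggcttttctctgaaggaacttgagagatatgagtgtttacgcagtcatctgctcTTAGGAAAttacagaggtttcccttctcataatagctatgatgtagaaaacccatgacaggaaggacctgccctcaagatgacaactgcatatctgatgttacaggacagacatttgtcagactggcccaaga
Clec4e: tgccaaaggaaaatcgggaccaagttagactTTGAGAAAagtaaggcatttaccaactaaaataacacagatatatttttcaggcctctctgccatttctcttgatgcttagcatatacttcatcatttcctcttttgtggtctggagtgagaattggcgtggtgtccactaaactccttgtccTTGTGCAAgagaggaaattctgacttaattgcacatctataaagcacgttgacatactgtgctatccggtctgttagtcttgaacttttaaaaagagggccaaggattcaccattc
Cplx2: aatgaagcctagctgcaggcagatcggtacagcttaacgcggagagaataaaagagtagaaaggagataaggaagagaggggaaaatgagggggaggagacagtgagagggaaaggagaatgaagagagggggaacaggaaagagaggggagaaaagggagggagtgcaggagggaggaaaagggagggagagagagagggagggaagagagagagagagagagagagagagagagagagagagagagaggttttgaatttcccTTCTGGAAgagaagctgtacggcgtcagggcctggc
Hes5: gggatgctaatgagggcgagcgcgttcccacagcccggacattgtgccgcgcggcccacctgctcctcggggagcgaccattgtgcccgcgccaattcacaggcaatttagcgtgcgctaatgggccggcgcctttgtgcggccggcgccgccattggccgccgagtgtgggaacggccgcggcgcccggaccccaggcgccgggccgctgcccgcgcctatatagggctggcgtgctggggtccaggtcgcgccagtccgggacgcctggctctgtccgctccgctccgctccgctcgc
Svopl: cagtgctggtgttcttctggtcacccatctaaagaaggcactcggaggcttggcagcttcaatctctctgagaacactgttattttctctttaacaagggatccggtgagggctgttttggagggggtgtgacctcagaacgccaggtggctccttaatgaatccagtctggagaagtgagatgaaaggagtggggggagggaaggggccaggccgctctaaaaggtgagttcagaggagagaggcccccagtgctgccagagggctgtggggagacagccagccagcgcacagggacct
Clec4d held 3 matches, Clec4e 2, Lilrb4 and Cplx2 1 each, and Hes5 and Svopl 0. Hes5 had 41 CpG dinucleotides in its 300 bases, whereas Clec4d had 0, Lilrb4 1, Clec4e 4, and Cplx2 and Svopl 5 each. At least 1 match was found in 38.8% of all promoters. A match describes letters and was not tested as a binding site.

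The deposited libraries held 15.93 M tags at 0 hpi and 16.99 M at 48 hpi. In 1 respect the early H3K27Ac libraries stood apart from the rest. A 60 kb segment of the heavy chain locus (chromosome 12, 114670001 to 114730000) held 569 tag positions in the H3K27Ac library of 0 hpi and 463 in that of 3 hpi, but no more than 3 in each of the other 13 libraries, those of H3K4Me1 and H3K27Me3 at 0 hpi included. The segment was picked within the locus for holding H3K27Ac tags at 0 hpi and almost none at 48 hpi. The contrast of those libraries was thus set by the choice, and the other libraries were not used for it. The same counting with the 12 hpi library in place of that of 0 hpi gave 528 starts at least 2-fold higher at 48 hpi and 1037 lower. Whether the H3K27Ac libraries of 0 and 3 hpi came from the same cells as the other 13 was not tested, nor was its part in the results. By direction of change, marker genes matched the labels. All 9 pre-B markers were acetylated at 0 hpi and 8 still at 48 hpi. Each was at least 2-fold lower at 48 hpi, against 9.39% of all starts. Under the scaling by bins enriched at all 5 times, described below, 6 of the 9 were, against 5.06%. Of 9 macrophage markers, 6 were already acetylated at 0 hpi and 8 at 48 hpi. At least 2-fold higher were 7 of them, against 5.34% of all starts, and Mertk and Ctss were not. Medians at 0 and 48 hpi were 1227 and 448 tags for the pre-B and 34 and 197 for the macrophage markers. The summed level was 10100 and 3499 tags for the pre-B markers and 661 and 3248 for the macrophage markers at 0 and 48 hpi. The 9 T cell markers stayed at 3 to 24 tags, where the genome mean for 3 kb is 18.7 tags, with sums of 84 and 73. Of 8 erythroid and megakaryocyte markers, 1 was higher, beside 5.34% of all starts, Itga2b with 5 and 16 tags. In this set 2 were acetylated at 0 hpi and 1 at 48 hpi, with at most 103 and 86 tags. Of 14 non-blood markers, 2 were higher, beside the same share, Gfap with 10 and 31 and Cdh1 with 5 and 15. None of the 14 reached the 34 tags at which a window counted as acetylated.

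Across the 22350 starts, 1194 (5.34%) were at least 2-fold higher at 48 hpi, 2098 (9.39%) were at least 2-fold lower and 19058 lay between. The large changes leaned the other way. At least 4-fold higher were 341 starts (1.53%) and at least 4-fold lower 316 (1.41%), at least 8-fold 162 and 53, and at least 16-fold 73 and 5. The change ran from 7.18 to -5.99, and its median was -0.14. For 556 of the higher and 1077 of the lower starts the whole 95% counting interval of the ratio lay beyond 2-fold.

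The balance of higher and lower starts depended on the scale. Of the starts called either way 36.3% were higher at equal depth. When the libraries were scaled to equal tags in the bins that were enriched at all 5 times, which adds 0.41 to the log2 of the 48 hpi tags, 2116 starts were higher and 1132 lower, so that 65.1% of those called were higher and the median became 0.11, a shift of the median large enough to turn the sign of lists near 0. Because the same constant is added for every start, this choice can change their order only through the 5 added tags. Under this scaling 9.47% of all starts were higher and 5.06% lower. Lists whose median turns its sign under it are named as such below. The T cell and non-blood marker medians turned too, from -0.18 to 0.11 and from -0.07 to 0.13. Scaled by background bins, the medians of myeloid transcription factors, oxidase genes and granulocyte markers turned, to -0.02, -0.07 and -0.03.

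A window counted as acetylated from 34 tags on, where the Poisson tail over the genome mean falls under 0.001. By that measure 9977 starts (44.6%) were acetylated at both times, 11429 (51.1%) at neither, 564 at 48 hpi alone and 380 at 0 hpi alone. Most of the starts that were at least 2-fold lower, 1384, were acetylated at both times, as were 267 of the higher starts. Of the 564 starts acetylated at 48 hpi alone 446 were at least 2-fold higher, and of the 380 acetylated at 0 hpi alone 260 were lower. At the remaining 481 higher and 454 lower starts neither library reached 34 tags, and such starts rest on few tags. Across starts the levels of 0 and 48 hpi had a Spearman correlation of 0.913, a description over starts of 2 libraries with shared base composition and mappability. The plot of tags at 0 against 48 hpi shows both ends off the diagonal.

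**Figure D1:**
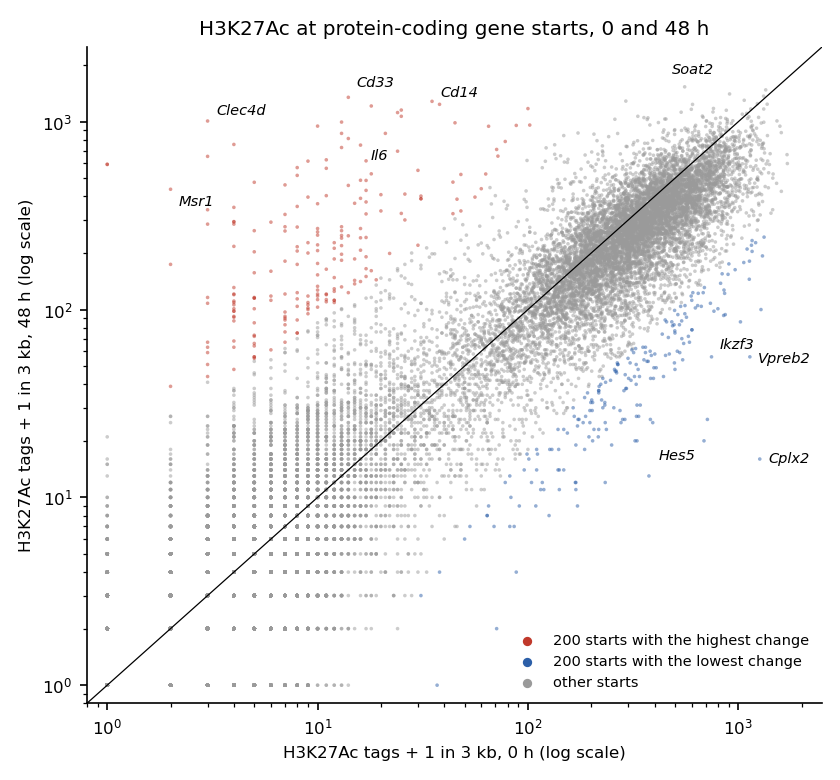
H3K27Ac tags in 3 kb around each of 22350 gene starts at 0 hpi (x axis) and 48 hpi (y axis), both with 1 tag added and on log scales, with the 200 starts of highest and the 200 of lowest change coloured and some named. The high end lies at few tags at 0 hpi (median 9) and the low end mostly far above it (median 306.5).

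Among the starts with the most acetylation at 0 hpi were those of Dok3 with 1704 tags, Chst3 with 1601, Pik3ap1 with 1600 and Susd1 with 1576. Dok3 and Pik3ap1 are adaptors of B cell and innate signalling. At 48 hpi the same starts had 667, 425, 874 and 946 tags. The list at 48 hpi was led by Soat2, an acyltransferase of cholesterol, with 1533 tags against 555 at 0 hpi. Ppp1r15b, a phosphatase subunit of the stress response, followed with 1477 against 1349, then Ptger2, a prostaglandin receptor, with 1405 against 908. Hspa9, a mitochondrial chaperone, had 1368 against 1318. Only Cd33, a sialic acid-binding lectin of myeloid cells, reached the first 5 places from a window that was not acetylated at 0 hpi, with 13 tags there and 1348 at 48 hpi.

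The highest changes included several surface receptors of myeloid cells. Clec4d held 2, 11, 70, 468 and 1008 tags at 0, 3, 12, 24 and 48 hpi, a change of 7.18, and the log2 ratio of its tags had an exact interval of 7.12 to 12.03. Clec4e, its neighbour on chromosome 6, held 3, 18, 78, 452 and 756 tags, with a ratio interval of 6.43 to 10.26. Both lay below the genome mean at 0 hpi and far above it from 24 hpi on. Lilrb4 held 0, 5, 77, 347 and 593 tags, with a lower limit of 7.32 for its log2 ratio, and Gp49a, a paralog whose window overlaps that of Lilrb4, had nearly the same tags. Msr1, the class A scavenger receptor, held 1, 5, 95, 364 and 436 tags, with a ratio interval of 6.28 to 14.08. In genes with so few tags at 0 hpi the added 5 tags decide how high they rank, since the measured log2 ratio lies above the ranked one.

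A further group of leading starts reached near their final level by 12 or 24 hpi. Cd33 held 131 tags at 3 hpi and 1007 at 12 hpi, and its change was 6.23. Orm1, an acute-phase glycoprotein, went from 9 tags over 113, 505 and 960 to 947, and Camp, the cathelicidin of neutrophil granules, from 12 over 62, 667 and 1090 to 995. Ifitm6 held 17, 200, 652, 1140 and 1212 tags and Igsf6 24, 39, 1078, 1507 and 1153. These starts had most of their acetylation before the last time, and Igsf6 was higher at 24 than at 48 hpi. Slower starts were Rnf11, a ubiquitin ligase, with 12, 98, 209, 352 and 866 tags, and Adcy10, a soluble adenylyl cyclase, with 10, 45, 68, 301 and 626.

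The remaining starts among the 25 highest, where starts that share a window were counted once, had changes from 5.24 to 6.56. They included Itgb7, an integrin chain, with 13 tags at 0 hpi and 813 at 48 hpi, Tnfsf14, the cytokine LIGHT, with 7 and 569, and Fcrlb, an Fc receptor-like protein, with 8 and 616. Plasma protein genes were there as well: Hp, which encodes haptoglobin, had 12 and 728 tags and F5, coagulation factor V, 23 and 1118. Hal, an enzyme of histidine breakdown, had 7 and 517, and Tcfec, a transcription factor of the MiT family, 10 and 564. Sept14, Klra2, Gm17252, Gm5150, Il6 and BC055004 were also in the group.

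The lowest changes included genes of B cells and of mitosis and several genes better known from other organs. Cplx2 held 1264, 1007, 285, 43 and 15 tags, a change of -5.99 with a ratio interval of -7.24 to -5.67. It went from far above the genome mean to below it. Hes5 held 686, 504, 117, 54 and 19 tags and Svopl 712, 234, 123, 42 and 25. Vpreb2, a part of the surrogate light chain, held 1134, 408, 189, 75 and 55 tags. Its near-identical copy Vpreb1 held 1017, 1132, 779, 775 and 492, and since tags that fit both copies were dropped, values at these starts are uncertain where the copies are alike. Gfra1 and Gfra2, coreceptors of the GDNF family, had 232 and 1281 tags at 0 hpi and 11 and 99 at 48 hpi.

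The mitotic genes Oip5 and Nusap1, which share a window, had 329 and 322 tags at 0 hpi and 19 each at 48 hpi. Pbk, a mitotic kinase, had 249 and 18. Neil3, a DNA glycosylase, had 288 and 25. Ikzf3, which encodes Aiolos, had 745 tags at 0 hpi and 55 at 48 hpi. Slc6a19, a transporter of neutral amino acids, had 391 and 24, Umod, the urinary protein uromodulin, 167 and 11, and Upk1b, a uroplakin of the bladder lining, 168 and 10. These last 3 genes are known from other organs, and their starts were well above the genome mean in the pre-B cells. Srpk3, Bai2, Gtse1, Smtnl2, Bcas1, Ppfibp2, Xk, Hist1h3g, Gm17706, Gm15409, 2610002D18Rik and 2810417H13Rik were also among the 25 lowest, where starts that share a window were counted once, with changes from -3.28 to -4.48.

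**Figure D2:**
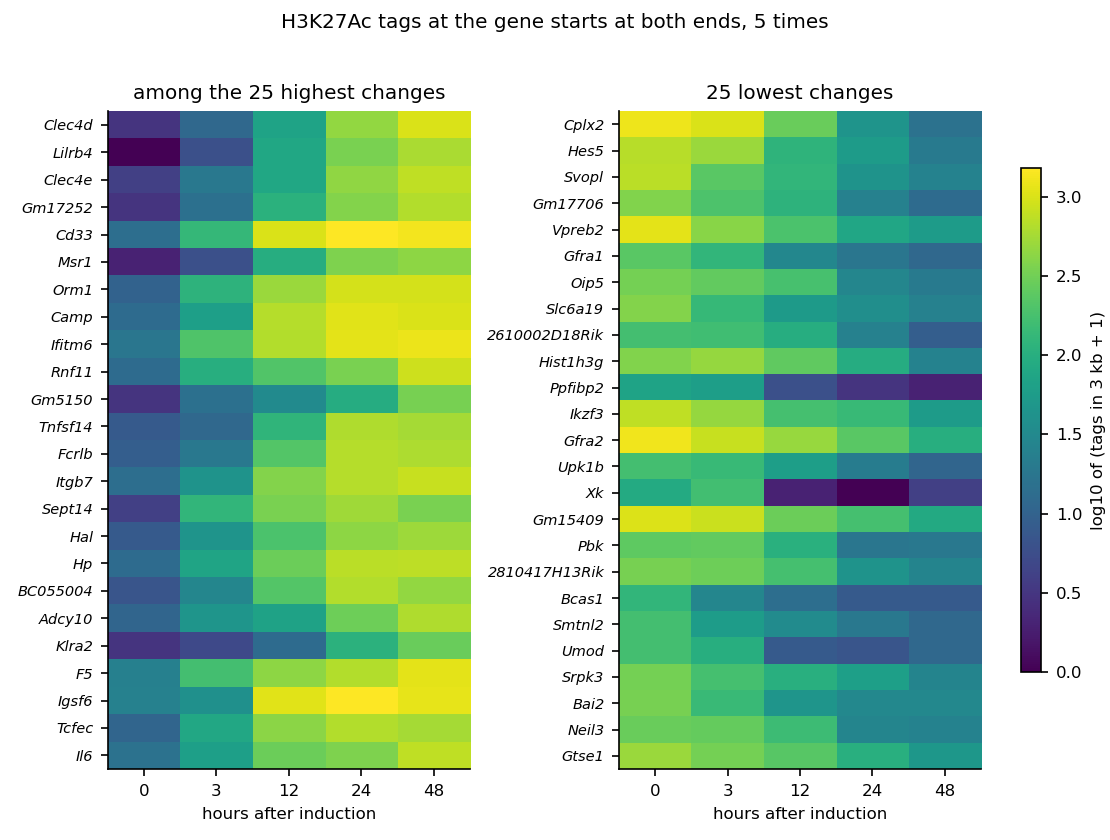
H3K27Ac tags in 3 kb at 0, 3, 12, 24 and 48 hpi (columns, colour on a log10 scale of tags plus 1) for starts among the 25 of highest change (left) and the 25 of lowest change (right), those sharing a window counted once, 1 row per start. Cd33 and Igsf6 are bright from 12 hpi on, with 1007 and 1078 tags, whereas Cplx2 goes from 1264 tags at 0 hpi to 15 at 48 hpi.

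Genes of myeloid function were often higher at 48 hpi. Over the 195 starts of 9 lists (transcription factors, growth factor receptors, pattern recognition, cytokines, Fc receptors, oxidase, lysosome, scavenger receptors and matrix) 73 were at least 2-fold higher, against 5.34% of all starts. Among the pattern recognition receptors and their adaptors 13 of 24 were higher and 1 lower, with a median change of 1.73. The lectins Clec4d and Clec4e led, followed by Cd14, the coreceptor for lipopolysaccharide, with 34, 240, 424, 1035 and 1283 tags. Tlr7 held 17, 32, 87, 375 and 527 tags and Tlr13 4, 15, 65, 182 and 202, both sensors of RNA in endosomes. Nlrp3, the inflammasome sensor, had 291 and 1287 tags and Tlr2, the receptor for lipopeptides, 142 and 658.

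Some receptors of this list were already acetylated in pre-B cells. Tlr4, the lipopolysaccharide receptor, had 876 tags at 0 hpi and 1150 at 48 hpi, and its partner Ly96 had 363 and 553. Tlr6 had 622 and 724. Tlr9, the DNA sensor, was the 1 member at least 2-fold lower, with 530 and 226 tags.

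Of the 27 cytokine, chemokine and chemokine receptor genes 12 were higher and 1 lower, beside 5.34% and 9.39% of all starts. The median was 0.84. With 20 tags added 8 were higher and 1 lower, beside 2.67% and 6.33%, with a median of 0.53. Il6 held 15, 62, 296, 371 and 750 tags and Il1b 20, 138, 580, 915 and 866. Ccl2, in a window shared with a neighbouring start, had 3 and 108 tags, and was highest at 24 hpi with 302. Cxcl2 had 4, 7, 10, 24 and 114 tags and so appeared late. Tnf was acetylated throughout, with 545, 503, 549, 623 and 352 tags. Pf4, a platelet chemokine, was the lower member, with 200 tags at 0 hpi and 46 at 48 hpi.

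Among Fc receptors, ITAM adaptors and paired receptors 12 of 16 were higher and 0 lower, beside 5.34% and 9.39% of all starts. The median was 1.53. With 20 tags added 10 were higher and 0 lower, beside 2.67% and 6.33%, with a median of 1.38. Trem1 with 2 and 9 tags and Trem3 with 6 and 22 counted as higher below the 34 tags of an acetylated window. Fcer1g, the shared signalling chain of Fc receptors, held 71, 51, 338, 804 and 655 tags, and Tyrobp, the adaptor DAP12, 331, 373, 700, 978 and 791. Fcgr4 had 12 and 275, Clec5a 13 and 246, and Trem2 2 and 50. Fcgr2b, the inhibitory Fc receptor that B cells and macrophages share, had 768 and 555 tags. Fcer1g, Tyrobp and Fcgr2b were thus acetylated in the pre-B cells, whereas Fcgr4, Clec5a and Trem2 were not.

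The 18 scavenger receptor and macrophage surface genes had 9 higher and 0 lower, beside 5.34% and 9.39% of all starts. The median was 0.85. It was 0.38 with 20 tags added, where 7 were higher, and 1.29 in 6 kb windows, where 10 were. Stab1, an endocytic receptor, had 9 and 365 tags in a window it shares with another start. C3ar1 and C5ar1, receptors for complement fragments, had 9 and 248 and 7 and 122, and Siglec1, the sialoadhesin of tissue macrophages, had 12 and 182. Marco, Cd163, Vsig4 and Mrc1, which are typical of macrophages in tissues, had 5, 6, 8 and 36 tags at 48 hpi. Beside the same shares, the matrix and protease list had 12 of 16 higher and 0 lower. Its median of 1.96 was the highest of the 27 lists at the start counted, while at the starts with most tags the Fc receptor list had a higher one, 2.13. With 20 tags added 10 of the 16 matrix and protease genes were higher and 0 lower, beside 2.67% and 6.33%, with a median of 1.45. Thbs1 with 12 and 29 tags and Fn1 with 8 and 30 counted as higher below the 34 tags of an acetylated window. Mmp8, a collagenase of granulocytes, held 37, 532, 1135, 1375 and 1237 tags. Mmp12, the macrophage elastase, held 14, 54, 196, 704 and 367, and Serpinb2, a protease inhibitor, 6, 15, 23, 45 and 275. Spp1, which encodes osteopontin, had 8 and 101.

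Granule genes of neutrophils were divided. Of 12 members 6 were higher and 0 lower, beside 5.34% and 9.39% of all starts, with a median of 0.91. Camp, Lcn2 with 4 and 100 tags, S100a8 with 3 and 86 and the lysozymes Lyz1 with 12 and 99 and Lyz2 with 121 and 725 were among the higher ones. Mpo, Ltf, Ngp and Ctsg stayed between 3 and 9 tags at both times, and S100a9 had 8 and 2. Of the 7 granulocyte markers 3 were higher and 0 lower, beside the same shares, and the higher ones were Camp, S100a8 and Elane. Elane, neutrophil elastase, held 16, 38, 193, 153 and 67 tags and was thus highest at 12 hpi. The 2 lysozyme genes are close copies, so that their split of tags is uncertain.

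The myeloid transcription factors were mostly acetylated before induction. Of 30 members 4 were higher and 2 lower, beside 5.34% higher and 9.39% lower of all starts, with a median of 0.04. Under the scaling by bins enriched at all times 8 were higher and 1 lower, beside 9.47% and 5.06%, with a median of 0.44. Sfpi1, which encodes PU.1, held 1320, 1303, 1419, 1546 and 1168 tags, and Cebpb, in a window shared with another start, held 632, 462, 489, 610 and 636. Cebpa held 98, 103, 73, 71 and 36, a change of -1.33. At equal depth the changes of Sfpi1 and Cebpb, -0.18 and 0.01, were smaller than the 0.41 that the other scaling adds. Higher were Tcfec, Hif1a, Fosl2 with 205 and 858 tags and Fosb with 174 and 354, the last 2 parts of the AP-1 factor. Klf4 and Maf had 1 or 2 tags at both times.

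In the list of myeloid growth factor and cytokine receptors 5 of 20 were higher and 2 lower, beside 5.34% higher and 9.39% lower of all starts. The median was -0.11 and becomes 0.26 under the scaling by bins enriched at all times. With 20 tags added 3 were higher and 2 lower, beside 2.67% and 6.33%. The higher members included Il1rn, which encodes an antagonist and not a receptor, with 19 and 122 tags. Csf3r with 6 and 19 tags and Il13ra1 with 4 and 17 also counted as higher, below the 34 tags of an acetylated window. Csf1r, the receptor for CSF-1, held 50, 104, 205, 488 and 248 tags. Csf2rb2 had 143 and 443, while Csf2rb, the chain shared by the receptors for GM-CSF, IL-3 and IL-5, had 440 and 614. Il10ra was lower with 982 and 462 tags. The integrin list had 3 of 16 higher and 2 lower, beside 5.34% and 9.39%, with a median of -0.02 that turned to 0.27 under the scaling by bins enriched at all times. Itgam and Itgax, the α chains of Mac-1 and CD11c, had 10 and 88 and 14 and 185 tags, and Itgb2, their β chain, had 212 and 253.

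The phagocyte's machinery was described by 4 lists, beside 5.34% higher and 9.39% lower of all starts at equal depth. Under the scaling by bins enriched at all times these shares were 9.47% and 5.06%. Of 6 oxidase genes 2 were higher and 1 lower, with a median of 0.01. Under the scaling by bins enriched at all times 2 were higher and 0 lower, with a median of 0.42, at the starts with most tags 1 was higher, and with 20 tags added 0 were. One of the higher members, Cybb, had 1 and 10 tags. Cyba and Ncf1 were acetylated throughout, with 700 and 605 and 455 and 532 tags. Rac2 was lower with 1174 and 551 tags. The lysosome and proton pump list had 4 of 38 higher and 3 lower, with a median of 0.15, and under the scaling by bins enriched at all times 10 higher and 2 lower, with a median of 0.53. Higher were Ctsk with 11 and 95 tags, Ctsd with 266 and 865, Cd68 with 159 and 464 and Lamp1 with 197 and 446, and lower were Tcfeb, Lgmn and Neu1, of which Tcfeb turned from -1.72 to 0.59 at its start with most tags. Among actin and phagocytosis genes 3 of 23 were higher and 3 lower, the latter near the share of all starts, with a median of -0.39 that became 0.02 under that scaling. Actb had 1175 and 894 tags and Vim 912 and 723. Myo1f, a myosin of phagocytes, had 73 and 242. Of 7 complement genes 2 were higher and 0 lower, C3 with 7 and 74 tags and Cfp with 87 and 275, with a median of 0.52. The 3 C1q genes had 3 to 5 tags at 48 hpi.

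**Figure D3:**
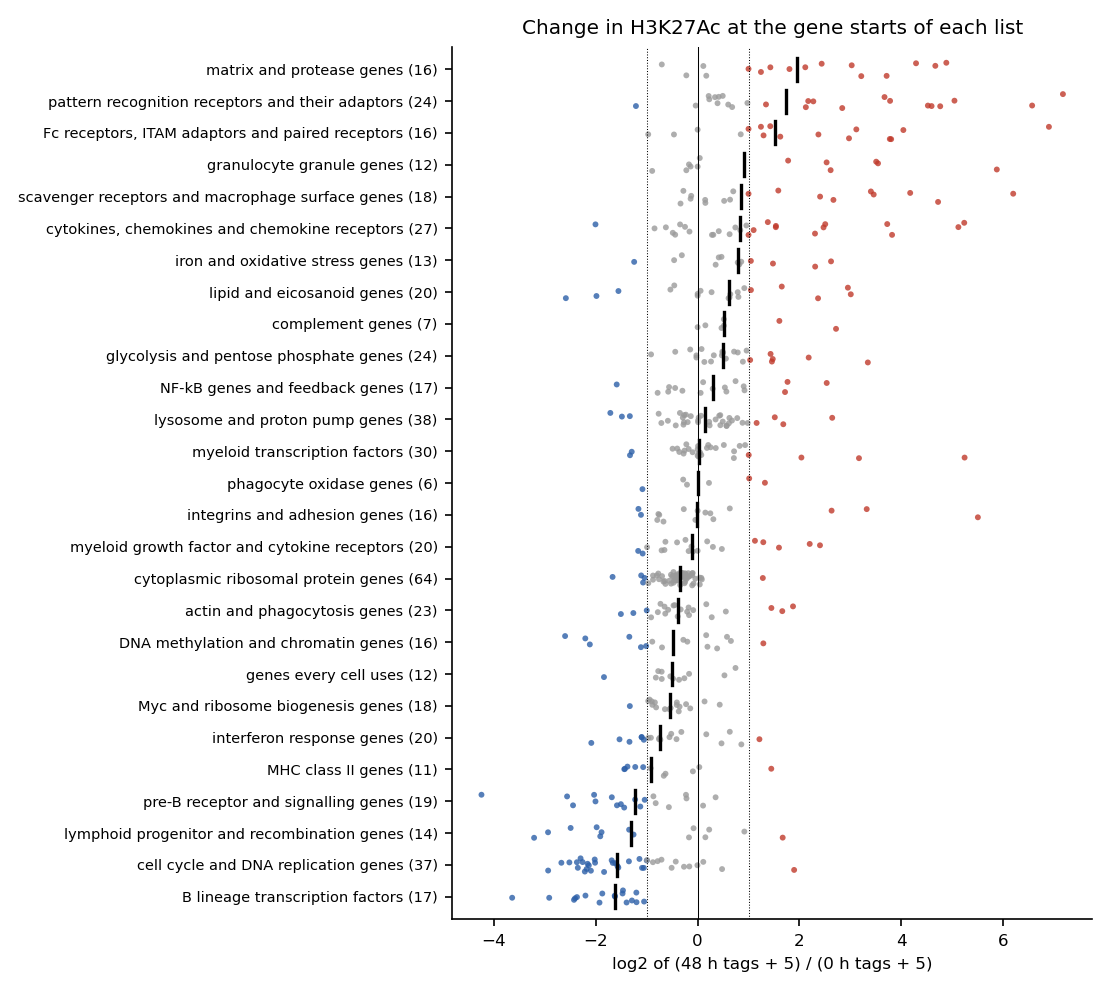
log2 change at 48 against 0 hpi (x axis) of each member of the 27 gene lists (rows, ordered by median), with 1 point per gene start and a bar at the list's median. Points beyond the dotted lines are at least 2-fold higher (red) or lower (blue). Matrix and protease genes (1.96) and pattern recognition receptors (1.73) stand at one side and B lineage transcription factors (-1.63) and cell cycle genes (-1.58) at the other.

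B lymphoid genes were lower at most of their starts. Over the 50 starts of 3 lists 37 were at least 2-fold lower, against 9.39% of all starts. All 17 B lineage transcription factors were lower, with a median of -1.63, and 17 of 17 stayed acetylated at 48 hpi. Ikzf3 held 745, 483, 174, 140 and 55 tags. Myb, a factor of progenitors, held 765, 1000, 472, 269 and 97 and was thus highest at 3 hpi. Pax5, which holds B cell identity, held 1068, 871, 657, 588 and 277, and Ebf1 859, 859, 707, 634 and 348. Ebf1 had the same tag count at 3 hpi as at 0 hpi, and Pou2af1, a coactivator, had the smallest change of the list, with 1181 and 567 tags. Under the scaling by bins enriched at all times 12 of the 17 were at least 2-fold lower, beside 5.06% of all starts.

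Of 19 pre-B receptor and signalling genes 12 were lower and 0 higher, beside 9.39% and 5.34% of all starts. The median was -1.23. Scaled by bins enriched at all times 9 were lower and 0 higher, beside 5.06% and 9.47%, with a median of -0.82. Cd72, an inhibitory coreceptor, held 640, 276, 214, 145 and 104 tags, and Cd79a, a signalling chain of the receptor, 1232, 829, 692, 576 and 297. Igll1, the λ5 chain, held 1520, 1527, 1366, 1088 and 469, so that it was near its 0 hpi level until 12 hpi. The kinases that myeloid cells use as well differed less: Lyn had 841 and 906 tags, Sykb (Syk) 908 and 612 and Btk 719 and 404. Vpreb3 had 334 and 428 tags, but its annotated start with the most tags had 1020 and 280.

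Of 14 lymphoid progenitor and recombination genes 8 were lower and 1 higher, beside 9.39% and 5.34% of all starts. The median was -1.30. Under the scaling by bins enriched at all times 6 were lower and 2 higher, beside 5.06% and 9.47%, with a median of -0.895. Notch1 held 440, 140, 127, 67 and 43 tags at its gene-level start. Dntt, the terminal transferase that adds bases at recombined ends, held 578, 493, 135, 103 and 71. Rag1 and Rag2, the recombinase, had 198 and 590 tags at 0 hpi and 31 and 153 at 48 hpi, and Rag1 shares its window with another start. Il7r had 1132 and 470. Cd93, a receptor of early B cell progenitors, was near level with 1123 and 1062.

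At its annotated start with most tags Notch1 had 556 and 243 tags, a change of -1.18. Hes1 and Nrarp, which Notch induces as it does Hes5, were also among the 200 lowest and are named after their values were seen, with no list of the pathway counted. Hes1 held 543, 460, 148, 114 and 53 tags and Nrarp 434, 357, 156, 113 and 73.

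Genes of the cell cycle were lower as a group. Of 37 members 25 were at least 2-fold lower and 1 higher, beside 9.39% and 5.34% of all starts. The median was -1.58, and all 37 stayed acetylated. Scaled by bins enriched at all times 20 were lower and 1 higher, beside 5.06% and 9.47%, with a median of -1.17. Rrm2, a subunit of ribonucleotide reductase, held 799, 650, 518, 234 and 100 tags. Top2a, topoisomerase II, held 385, 298, 236, 88 and 56 and Plk1, a mitotic kinase, 494, 361, 357, 79 and 82. In tags, these 3 starts had their largest step between 12 and 24 hpi. Ccnd3, the D cyclin that pre-B cells use, held 1039, 404, 368, 302 and 239, with its largest step by 3 hpi, in a window shared with another start. Cdkn1a, the inhibitor p21, was the higher member with 49, 56, 50, 97 and 196 tags, but at its annotated start with most tags it had 475 and 599, a change of 0.33. Some members were near level, among them E2f1 with 558 and 603 tags and Orc1 with 324 and 323.

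The histone genes, grouped by symbol after their values were seen, moved the same way. Of 67 starts whose symbol begins with Hist 35 were lower and 0 higher, beside 9.39% and 5.34% of all starts, with a median of -1.06. Among the 200 lowest, which are 0.895% of all starts, were 6 of them. Hist1h2af held 585, 569, 345, 140 and 66 tags and Hist1h3g 381, 478, 253, 92 and 25. Most of these genes lie in clusters with near-identical copies and shared windows, so a tag may not be assigned to a single gene. Of 10 Mcm genes, the replicative helicase and its relatives, 6 were lower, and of 38 kinesins 13 were lower and 1 higher, beside 9.39% and 5.34% of all starts. They too were picked after their values were seen, from 352 symbol stems with at least 8 starts, of which 14 had at least 1 in 3 starts lower. Among these 14 were Gimap and Rnase, each with 5 of 8 starts lower, a larger share than that of the histone, Mcm or kinesin genes.

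The DNA methylation and chromatin list had 6 of 16 lower and 1 higher, beside 9.39% and 5.34% of all starts, with a median of -0.49. Scaled by bins enriched at all times 3 were lower and 2 higher, beside 5.06% and 9.47%, with a median of -0.20, and at the starts with most tags 8 were lower and 1 higher, with a median of -0.99. Uhrf1, which guides maintenance methylation, held 524, 488, 280, 105 and 82 tags and Dnmt1 490, 380, 247, 186 and 109. Ezh2 and Suz12, core subunits of Polycomb complex 2, had 601 and 562 tags at 0 hpi and 234 and 257 at 48 hpi, while their partner Eed had 424 and 477. Tet2, an oxidase of methylcytosine, was the higher member with 230, 626, 673, 883 and 570 tags. Kdm6b, a demethylase of H3K27Me3, held 487, 98, 225, 337 and 729, so that it was lowest at 3 hpi.

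For genes of growth and of functions shared by all cells the shares of all starts, 5.34% higher and 9.39% lower, again stand beside the counts. Under the other scaling, by bins enriched at all times, they were 9.47% and 5.06%. Of 18 Myc and ribosome biogenesis genes 1 was lower and 0 higher, with a median of -0.54, and Myc itself had 654 and 491 tags. Of 64 ribosomal protein genes 4 were lower and 1 higher, with a median of -0.35 that became 0.06 under the other scaling, where 1 was lower and 1 higher. The higher one, Rpl18 with 274 and 673 tags, shares its window with Sphk2 and had 751 and 950 at its start with most tags. Of 12 genes that every cell uses 1 was lower, Tubb5 with 625 and 171 tags, and 0 higher, with a median of -0.51. Of 24 glycolysis and pentose phosphate genes 6 were higher and 0 lower, with a median of 0.50, which were 10 and 0 under the other scaling and 4 and 0 at the starts with most tags. Hk3, a hexokinase of myeloid cells, held 47, 28, 318, 523 and 523 tags, and Gapdh had 336 and 475.

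For antigen presentation and interferon genes the shares of all starts are again 9.39% lower and 5.34% higher at equal depth, and 5.06% and 9.47% under the other scaling. Of 11 MHC class II genes 5 were lower and 1 higher, with a median of -0.92, and under the other scaling 3 and 1. H2-Ab1 held 125, 127, 123, 88 and 45 tags. Cd74, the invariant chain, was the higher member with 130, 78, 164, 328 and 363, and so moved against H2-Ab1. Of 20 interferon response genes 6 were lower and 1 higher, with a median of -0.74, but scaled by bins enriched at all times 2 were lower and 3 higher, with a median of -0.34. Ifit2 had 480 and 109 tags, while Irf7 had 45 and 111.

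The NF-kB list had 3 of 17 higher and 1 lower, beside 5.34% higher and 9.39% lower of all starts, with a median of 0.30. For all lists of this paragraph the shares under the scaling by bins enriched at all times were 9.47% and 5.06%. Scaled in that way the NF-kB list had 6 higher and 1 lower. Counted at the starts with most tags it had 1 higher and 2 lower, with a median of 0.06. Beside the same shares, iron and oxidative stress genes had 4 of 13 higher and 1 lower, with a median of 0.79, and under the other scaling 7 and 0. Bcl3 had 68 and 235 tags, Dusp2 1241 and 409. Nqo1 and Srxn1, targets of the oxidative stress factor Nrf2, had 18 and 109 and 8 and 75. Tfrc, the transferrin receptor of dividing cells, had 807 and 337, whereas Slc11a1, a metal transporter of phagosomes, had 210 and 439. Of 20 lipid and eicosanoid genes 5 were higher and 3 lower, again beside 5.34% and 9.39%, with a median of 0.62, and under the other scaling 11 and 3. Ptgs1 and Ptgs2, the cyclooxygenases, went opposite ways: Ptgs1 held 380, 187, 143, 116 and 59 tags and Ptgs2 40, 176, 152, 205 and 227. Abca1 and Abcg1, exporters of cholesterol, did so too, with 64 and 212 and 455 and 111 tags.

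Some starts at the high end, named after their values were seen, were acetylated early. Apoe held 16, 126, 291, 295 and 164 tags, Apoc1 7, 254, 448, 401 and 274, and Apoc2, in a shared window, 14, 280, 202, 198 and 142. Apoc2 was thus highest at 3 hpi, the first time measured after induction. Mmp27 held 24, 533, 703, 990 and 1068 tags and, with Mmp8, was already far above its 0 hpi level at 3 hpi. By symbol, and again grouped after the values were seen, 10 of 23 Mmp starts were higher and 1 lower, beside 5.34% and 9.39% of all starts. Among the 200 highest, which are 0.895% of all starts, were 6 of the 23. Of 12 Tlr starts 4 were higher and 1 lower, of 8 Slfn starts 4 and 1, and of 12 Cxcl starts 4 and 0, beside 5.34% and 9.39% of all starts. These stems were picked from 352 with at least 8 starts, of which 8 had a share of higher starts at least as large as that of Tlr and Cxcl.

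The 200 highest and the 200 lowest starts, each 0.895% of all, were then described as groups. Their levels at 0 and 48 hpi, and what is derived from them, are values the ranking used. The 200th from the top had a change of 2.69 and the 200th from the bottom one of -2.27. The lists held 41 of the 200 highest and 19 of the 200 lowest, out of 586 listed starts, so most starts at both ends lie outside the lists. Median levels at the high end were 9, 20.5, 77.5, 182 and 204.5 tags at 0, 3, 12, 24 and 48 hpi and at the low end 306.5, 204, 123.5, 54 and 40.5. At starts acetylated at both times they were 297, 323, 289, 304 and 242.

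The order in which the ends moved depended on the measure. In tags, the low end passed its midpoint first. Of the 200 lowest starts 84 passed the midpoint between their 0 and 48 hpi levels by 3 hpi, 77 more by 12 hpi, 38 by 24 hpi and 1 at 48 hpi. Of the 200 highest starts 10 passed it by 3 hpi, 60 by 12 hpi, 90 by 24 hpi and 40 at 48 hpi. The median share of the change reached at 3, 12 and 24 hpi was 39.4%, 73.9% and 92.9% at the low end and 5.73%, 34.1% and 85.6% at the high end. By a fixed 2-fold cut the order was the reverse: 96 of the 200 highest and 65 of the 200 lowest starts were at least 2-fold from their 0 hpi level at 3 hpi, 179 and 138 at 12 hpi and 197 each at 24 hpi. A 2-fold step is a smaller part of the change at the high end (median 3.64) than at the low end (-2.67). From a median of 9 tags at 0 hpi it also rests on few tags, so the order was not settled. The midpoints use the 0 and 48 hpi libraries that also chose the starts, and the heavy chain segment differed between the libraries of 3 and 12 hpi, as given above. At 24 hpi 76 of the 200 highest starts were above their 48 hpi level.

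At the high end H3K4Me1 moved with H3K27Ac, whereas H3K27Me3 was lower at 48 than at 0 hpi. Levels of these marks are given as multiples of the genome mean in the same 3 kb. H3K4Me1 at the 200 highest starts had a median of 1.27 at 0 hpi and 8.69 at 48 hpi, against 1.49 and 1.19 over all starts, and at the 200 lowest it had 4.55 and 2.98. Enriched for H3K4Me1 were 71 of the 200 highest starts at 0 hpi and 194 at 48 hpi, and 176 (88%) and 147 (73.5%) of the lowest. Over all starts the shares were 45% and 40.6%, and over the 9977 starts acetylated at both times they were 87.9% and 76.9%. Of the 176 lowest starts with H3K4Me1 at 0 hpi 138 still had it at 48 hpi, and 9 of the other 24 had it only then, while 111 of the 200 counted as acetylated at 48 hpi.

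H3K27Me3 at the high end had a median of 1.49 at 0 hpi and 1.01 at 48 hpi, and at the low end 0.53 and 0.69, against 0.74 and 0.69 over all starts. In between, at 3, 12 and 24 hpi, the high end had 1.33, 1.54 and 1.35. It was enriched at 0 hpi at 72 of the 200 highest starts (36%) and at 15 of the lowest (7.5%), against 15.3% of all starts. At 48 hpi 49 of the highest (24.5%) and 29 of the lowest (14.5%) were enriched, against 17.8% of all starts. Over the 9977 starts acetylated at both times the shares were 5.7% at 0 hpi and 6.43% at 48 hpi. The low end was thus near this set at 0 hpi and nearer to all starts at 48 hpi. All 15 of the lowest starts with H3K27Me3 at 0 hpi had it at 48 hpi, and each had passed the midpoint of its H3K27Ac change by 12 hpi. So had 146 of the 185 lowest starts without H3K27Me3 (78.9%), and the 15 started from a median of 147 tags against 326.

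**Figure D4:**
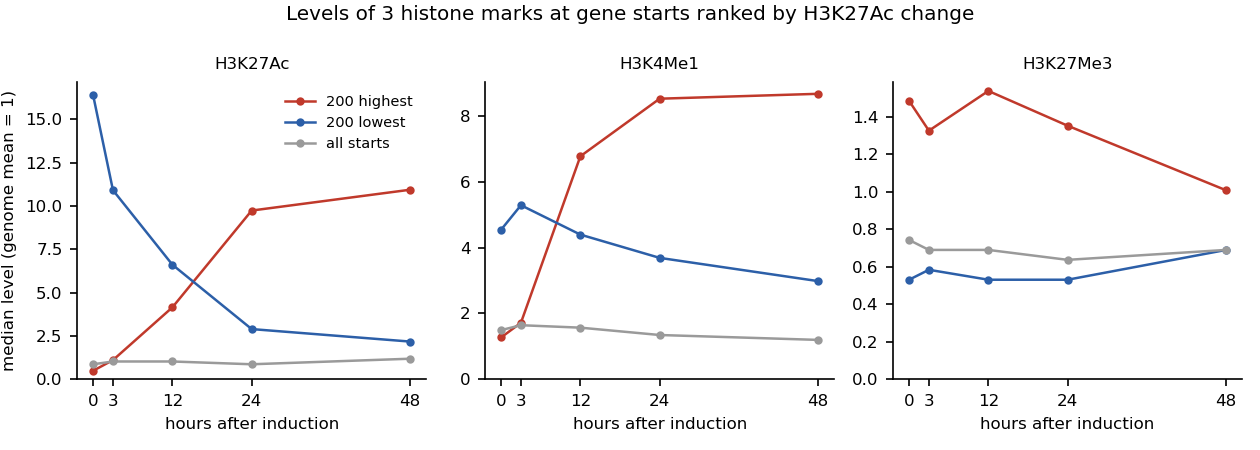
Median level of H3K27Ac, H3K4Me1 and H3K27Me3 (panels, y axes in multiples of the genome mean in 3 kb) at 0, 3, 12, 24 and 48 hpi (x axis) for the high end, the low end and all starts. At the high end H3K4Me1 goes from 1.27 to 8.69 and H3K27Me3 from 1.49 to 1.01, with 1 library per point and no error.

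The high end was not uniform in these marks. Its 71 starts with H3K4Me1 at 0 hpi had median H3K27Ac levels of 16, 52, 201, 406 and 373 tags, and 40 of them (56.3%) passed the midpoint by 12 hpi. The 129 starts without it had 6, 12, 48, 141 and 149 tags, and 30 of them (23.3%) had passed by then. The median change, 3.54 with H3K4Me1 and 3.73 without, differed the other way, and the tags of 0 and 48 hpi are those that ranked the starts. Of the 72 starts with H3K27Me3 at 0 hpi 39 still had it at 48 hpi, and 18 (25%) passed the midpoint by 12 hpi, against 52 of the 128 starts without it (40.6%).

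The ends also differed in the extent of acetylation. In the 3 kb upstream of the start window the median log2 change was 2.27 at the high end and -1.01 at the low end, against 0 over all starts, and downstream it was 2.45 and -1.25 against 0.06. At least 2-fold higher upstream were 163 of the 200 highest starts (81.5%), against 12.6% of all, and downstream 167 (83.5%), against 13.9%. At the low end 104 (52%) were lower upstream, against 6.47% of all, and 116 (58%) downstream, against 6.28%. The higher signal at the high end thus reached beyond the 3 kb that ranked the starts.

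Averaged over starts, the shape differed too. At 48 hpi the high end had its highest mean at 150 bp downstream of the start, 12.5 tags per 100 bp, with 5.72 at the edges 3 kb away and about as many tags downstream as upstream (ratio 1.04). The low end at 0 hpi had its highest mean at 250 bp, 21.5 tags, with 5.79 at the edges and a ratio of downstream to upstream tags of 1.46. Starts acetylated at both times had 24.0 and 19.1 tags at 250 bp and 2.42 and 2.44 at the edges, with ratios of 1.47 and 1.49. The low end at 48 hpi had 2.92 tags at its highest and 1.43 at the edges. The high end at 48 hpi was thus more even about the start than the low end at 0 hpi or the starts acetylated at both times.

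**Figure D5:**
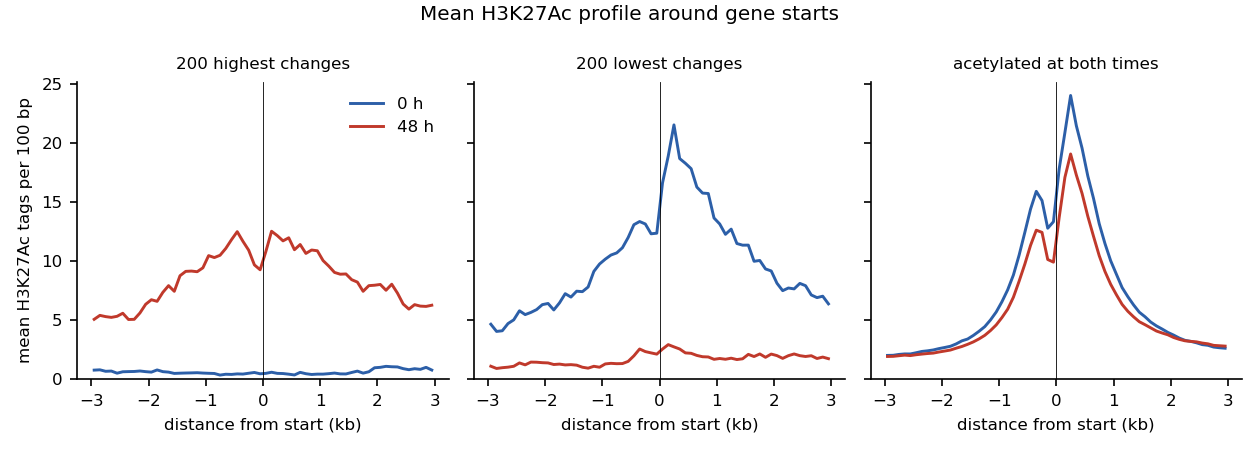
Mean H3K27Ac tags per 100 bp (y axis) by distance from the gene start (x axis, kb, downstream to the right) at 0 and 48 hpi for the high end, the low end and starts acetylated at both times (panels). The high end at 48 hpi is broad, at 12.5 tags near the start and 5.72 at the edges, whereas starts acetylated at both times fall from 24.0 to 2.42 at 0 hpi.

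Promoters at the high end were poor in CpG. The ratio of observed to expected CpG in the 1000 bp centred on the start had a median of 0.20 at the high end, 0.59 at the low end and 0.55 over all starts, and it was under 0.4 at 175 of the 200 highest (87.5%), 75 of the lowest (37.5%) and 8952 of all starts (40.1%). At 0 hpi 182 of the 200 highest were not acetylated. A ratio under 0.4 was common without acetylation, as at 7367 of the 11429 starts acetylated at neither time. Over the whole ranking the balance turned with this ratio. Of the 8952 starts under 0.4, 803 were higher (8.97%) and 574 lower (6.41%). Of 8812 between 0.4 and 0.8, 314 were higher (3.56%) and 1017 lower (11.5%), and of the 4586 at 0.8 and over, 77 (1.68%) and 507 (11.1%). Median levels at 0 hpi were 5, 131 and 287 tags in the 3 classes, and from 5 tags the 5 added tags leave little room for a lower value.

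Letters of factor motifs were counted on both strands in the 300 bases around the start of 22345 promoters without unknown bases. The C/EBP-like motif was in 58.5% of the 200 highest, 32% of the 200 lowest and 38.8% of all promoters. Among promoters with a CpG ratio under 0.4 the shares were 61.1%, 36% and 52.4%, so that the distance of the high end from all starts was smaller there. TGANTCA, the letters of AP-1, were in 17%, 4.5% and 6.93%, and among CpG-poor promoters in 18.3%, 8% and 11.1%. GAGGAA, the core of PU.1 sites, was in 35%, 28% and 28.1%, and among CpG-poor promoters in 37.7%, 30.7% and 32.3%. CCCNNGGG, as in Ebf1 sites, was in 11%, 18% and 15.1%, and among CpG-poor promoters in 9.71%, 17.3% and 9.92%. CAGNTG, an E-box, was in 56.5%, 55% and 48.7%, and among CpG-poor promoters in 56%, 72% and 57.3%. TATAAA was in 23%, 10.5% and 13.4%, and among CpG-poor promoters in 24.6%, 13.3% and 23.1%, so that the high end there was close to all starts. The motifs may overlap each other, and binding was not analysed here.

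Some starts at the high end lay near each other. Of the 200 highest 63 had another of the 200 within 100 kb, and of the 200 lowest 29, starts with overlapping windows included. The number for 200 starts drawn from all was not computed. Such groups were Clec4d, Clec4e and Clec4n, the Apoe and Apoc genes, Fpr1, Fpr2 and Fpr3, the Sirpb1 genes and the Cd300 genes. Overlapping 3 kb windows, which count the same tags for 2 starts, held 19 of the highest, 15 of the lowest and 3476 of all starts (15.6%).

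The choice of start mattered for single genes. Each gene was counted at its outermost annotated 5′ end, and for some genes another annotated start held far more tags. The genes named here were chosen for that difference. Cybb, the catalytic chain of the oxidase, had 1 and 10 tags at the gene-level start and 360 and 623 at its start with most tags. Ldha had 15 and 50 against 796 and 597, and Hif1a 7 and 103 against 158 and 280. For Fcgr3, an activating Fc receptor, the values were 44 and 20 against 51 and 457, and for Il1rn, the antagonist of the IL-1 receptor, 19 and 122 against 25 and 1013. Capg had 506 and 303 against 170 and 720, and Nfkb1 103 and 176 against 894 and 314. Cybb, Hif1a and Il1rn kept their direction at the start with most tags, whereas Ldha, Fcgr3, Capg and Nfkb1 turned, so that theirs holds for the start counted and not for the gene. Tnip1 turned from a change of 2.54 to -0.21 at its start with most tags and Tcfeb from -1.72 to 0.59.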

How the data were processed

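ChIP-seq of C10 cells for 3 histone marks at 5 times gave 15 libraries, 1 per mark and time, grouped by their GEO labels. The authors aligned Illumina reads to mm9 with Eland or Bowtie without mismatches (versions are not given in the sources used here) and by their account kept unique, non-identical tags. The deposited H3K4Me1 files of 0 and 48 hpi held up to 205 and 135 tags at a position, the other files at most 2. The deposited files list positions of 36 bp tags without strand, not counts or normalized values, and all counts were made here. In 3 files 2 closing lines held no position.

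A tag was placed 18 bp from its start, 1 tag was kept per position, and libraries were thinned at random to the smallest of their mark (H3K27Ac 15.22, H3K4Me1 10.91, H3K27Me3 15.34 M tags). Starts are the gene-level 5′ ends of protein-coding genes in GENCODE vM1 on NCBIM37, which is mm9: 0 of 32895621 tags of the 2 libraries fell beyond a chromosome end or in stretches of unknown bases. Windows, the 5 tags added and the thresholds are given where used, and the threshold was 34 tags in 3 kb for H3K27Ac, 27 for H3K4Me1 and 35 for H3K27Me3. Counts have exact Poisson intervals and ratios exact conditional binomial intervals at 95%, for counting error only, and copies at different positions are not removed. No p-value was computed. The ranking was run on simulated tags with Poisson error only and known changes planted at starts with many tags. This run does not cover starts with few tags or the spread between cultures. Named starts were the 25 at each end of the ranking (those sharing a window counted once), those with the most tags, and from each list the extremes and the genes it is known by. Members and lists were chosen with earlier results of these data known. Cebpd, Gfi1 and Sox1 were listed but not matched, and 4 genes were matched by an older symbol. Alternatives were 1 and 6 kb windows, 1 and 20 tags added, other scalings, tags as deposited, another draw, no thinning, the start with most tags, a minimum of 20 tags, no overlapping windows and no heavy chain locus. Other assays of the study were not used here, and a few single genes are not reported here. Python 3.11.15, numpy 2.4.6, pandas 2.3.3, scipy 1.17.1 and matplotlib 3.10.9 were used.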

Additional observations from a re-analysis of the deposited data

How the results depend on the processing

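No paired analysis was possible because there is only 1 library for every mark and time, and for the same reason no replicate could be left out. At equal depth 1194 starts were at least 2-fold higher, 2098 lower and the median change was -0.14. With 1 kb windows 770 were higher and the median was -0.087, and with 6 kb windows the median was -0.12. With 1 tag added 2454 were higher and 4190 lower (median -0.17), and with 20 tags added 597 were higher (median -0.064). Scaling by background bins gave a median of -0.19. Scaling by bins enriched at all 5 times gave 2116 higher and 1132 lower and turned the median to 0.11. The median was -0.13 without thinning, -0.20 for 12545 starts with at least 20 tags and -0.13 without overlapping windows. Of alternatives chosen after seeing the data, scaling by background bins over 5 kb from enriched bins gave a median of -0.06, and the 12 hpi library in place of that of 0 hpi gave 528 higher, 1037 lower, a median of -0.15, 39 of 195 myeloid starts higher and 14 of 50 B lymphoid starts lower, against 73 and 37. It compares times that lie closer together. Of 3166 recomputed changes at 229 named starts, 2768 stayed within their counting interval and 396 left it. A minimum of 20 tags, no overlapping windows and no heavy chain locus only leave out starts. Their 208, 210 and 229 values thus stayed by construction. With 1 kb windows 112 of 229 left their interval, and 111 under the scaling by bins enriched at all 5 times. A further 2 that were at least 2-fold turned their sign, both at the start with most tags: Tcfeb from -1.72 to 0.59 and Tnip1 from 2.54 to -0.21. Ldha, outside these 229, turned there as well, from 1.46 to -0.41. Changes under 2-fold were not counted as turned, and some did turn there, such as Fcgr3 from -0.97 to 3.04 and Vpreb3 from 0.35 to -1.85. Across the alternatives other than the 12 hpi library 153 to 200 of the 200 highest and 105 to 200 of the 200 lowest starts were shared. The counts of 200 came from alternatives that only leave out starts. Depth limits the 3575 starts with no more than 3 tags at both times, where no change could be detected, and with 1 library per time the spread between cultures is unknown.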
